A study of Mus musculus with 20 samples.

Results

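Thyroid hormone carriage, activation and response were followed in mouse liver through 7 genes: Dio1, Thrsp, Thrb, Thra, Klf9, Ttr and Slc16a10. They were taken as every probe set of the array's value table whose platform annotation gives 1 of these symbols, which gave 7 of the 18193 genes that have a probe set of 1 symbol, and 23 of all 45037 probe sets: 1 for Dio1, 3 for Thrsp, 1 for Thrb, 3 for Thra, 7 for Klf9, 4 for Ttr and 4 for Slc16a10. The livers came from male CD1 mice, an outbred stock, in 4 groups of 5 animals. Mice received phenobarbital sodium (PB) at 80 mg/kg/day by mouth for 28 days, or the methylcellulose vehicle alone (CMC) for 28 days, or PB for 90 days, or CMC for 90 days. A piece of the left lateral lobe was frozen on the day after the last dose, and its total RNA was hybridised to 1 Affymetrix 3′ expression array per mouse. The labels give no age. Thyroid hormone concentrations were not analysed here, so the values below are transcript levels only.

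Thyroid hormone leaves the gland mainly as thyroxine (T4), travels on plasma carriers, enters the hepatocyte through membrane transporters and is turned into the active form, triiodothyronine (T3), by removal of an iodine. T3 acts through nuclear receptors that sit on target genes with a retinoid X receptor partner. In rodents phenobarbital activates the constitutive androstane receptor, induces drug-metabolising enzymes in the liver and speeds the conjugation and excretion of thyroxine.

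In RefSeq's annotation of GRCm38.p6, Dio1 lies at chr4:107291465-107307168, Thrsp at chr7:97412933-97417550, Thrb at chr14:17659225-18040097, Thra at chr11:98740776-98769006, Klf9 at chr19:23141226-23168129, and Slc16a10 at chr10:40033532-40142270. Promoter windows of 300 bases, from 250 before to 50 after a RefSeq start, were given for 5 of the 7 genes (6 windows, 2 of them for Thrb). The window of Dio1 is shown because Dio1 gave the largest difference between PB and CMC livers among the 7 genes. It lies on the minus strand at chr4:107307119-107307418, and the stretch of a Thrb window below it is shown because it holds the receptor half-site AGGTCA, in capitals, with the motif starting 184 bases before the start (plus strand, chr14:17660764-17660793).
Dio1: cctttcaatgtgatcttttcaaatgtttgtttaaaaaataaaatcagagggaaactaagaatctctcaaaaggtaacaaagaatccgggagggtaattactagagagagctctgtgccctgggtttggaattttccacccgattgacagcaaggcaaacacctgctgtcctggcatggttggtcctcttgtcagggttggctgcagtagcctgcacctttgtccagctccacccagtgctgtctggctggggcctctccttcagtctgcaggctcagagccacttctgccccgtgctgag
Thrb: aggagagttgacAGGTCAagggaatagggc

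On either strand, AGGTCA occurred in 1 of the 6 windows, that of Thrb, and in 16.3% of all 32851 mouse promoter windows of the same length. The direct repeat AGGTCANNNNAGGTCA, in which N is any base, occurred in 0 of the 6 and in 5 of all windows (0.0152%), and each such repeat also counts as a half-site. A match or its absence describes these letters in these windows only.

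All values are log2 intensities summarised by RMA (robust multi-array average), and n = 5 mice per group throughout. As a floor for faint signals, the 25th percentile of each array was used, which lay between 3.96 and 4.26. All 23 probe sets had a mean above it. The RNA carried all 8 hepatocyte markers of the list used, each more than 1 log2 unit above that floor. Cyp2b10, the usual marker of the constitutive androstane receptor in mouse liver, was higher in PB than in CMC livers by 4.90 ± 0.62 log2 units at 28 days and 5.88 ± 0.62 at 90 days (± is the standard error, limma with Benjamini-Hochberg adjustment over all 45037 probe sets, adjusted p = 0.000742 and 4.38e-05). It was 1 of 3 genes listed as a check of receptor activation, of which 2 passed at each duration. Of all genes, 0.044% passed at 28 days and 0.104% at 90 days. The 3 genes were chosen with earlier results of these data known, so they are no independent check. Cyp2c55 gave 5.35 and 5.18 log2 units, whereas Cyp3a11 gave 0.11 and 0.16 and did not pass. The first principal component of all probe sets held 51% of the variance, and its 2 lowest scores, -149.4 (PB replicate 5, 28 days) and -94.4 (PB replicate 3, 90 days), were well below the next one of -56.7. Values without these 2 arrays are given beside the results that they moved most. The mean of a list of neutrophil marker genes was higher in PB livers, with list means of 6.14 to 6.96 against 5.30 to 5.79 in CMC livers at 28 days and 5.13 to 6.86 against 4.73 to 5.25 at 90 days (exact two-sided permutation p = 0.00794 and 0.0159), and without S100a8 the differences were 0.00 and 0.12 (exact permutation p = 1 and 0.349). Its part in the results below was not tested.

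None of the 23 probe sets passed an adjusted p of 0.05 in any comparison. Between PB and CMC livers 0 of 23 were called at 28 days, where 0.0244% of all probe sets were called, and 0 of 23 at 90 days, where 0.0511% were. For the mean PB effect over both durations 0 of 23 were called (0.0955% of all probe sets), for the difference between the PB effects at 90 and 28 days 0 of 23 (0% of all), for CMC livers at 90 against 28 days 0 of 23 (0%), and for PB livers at 90 against 28 days 0 of 23 (0.00222%). At an unadjusted p under 0.05 there were 2 of 23 at 28 days (3.02% of all), 2 at 90 days (4.69%), 2 for the mean PB effect (6.22%), 1 for the difference of effects (1.82%), 0 for CMC livers over time (5.56%) and 2 for PB livers over time (3.99%). In bulk tissue, fewer cells of a type and less RNA per cell cannot be told apart.

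**Figure D1:**
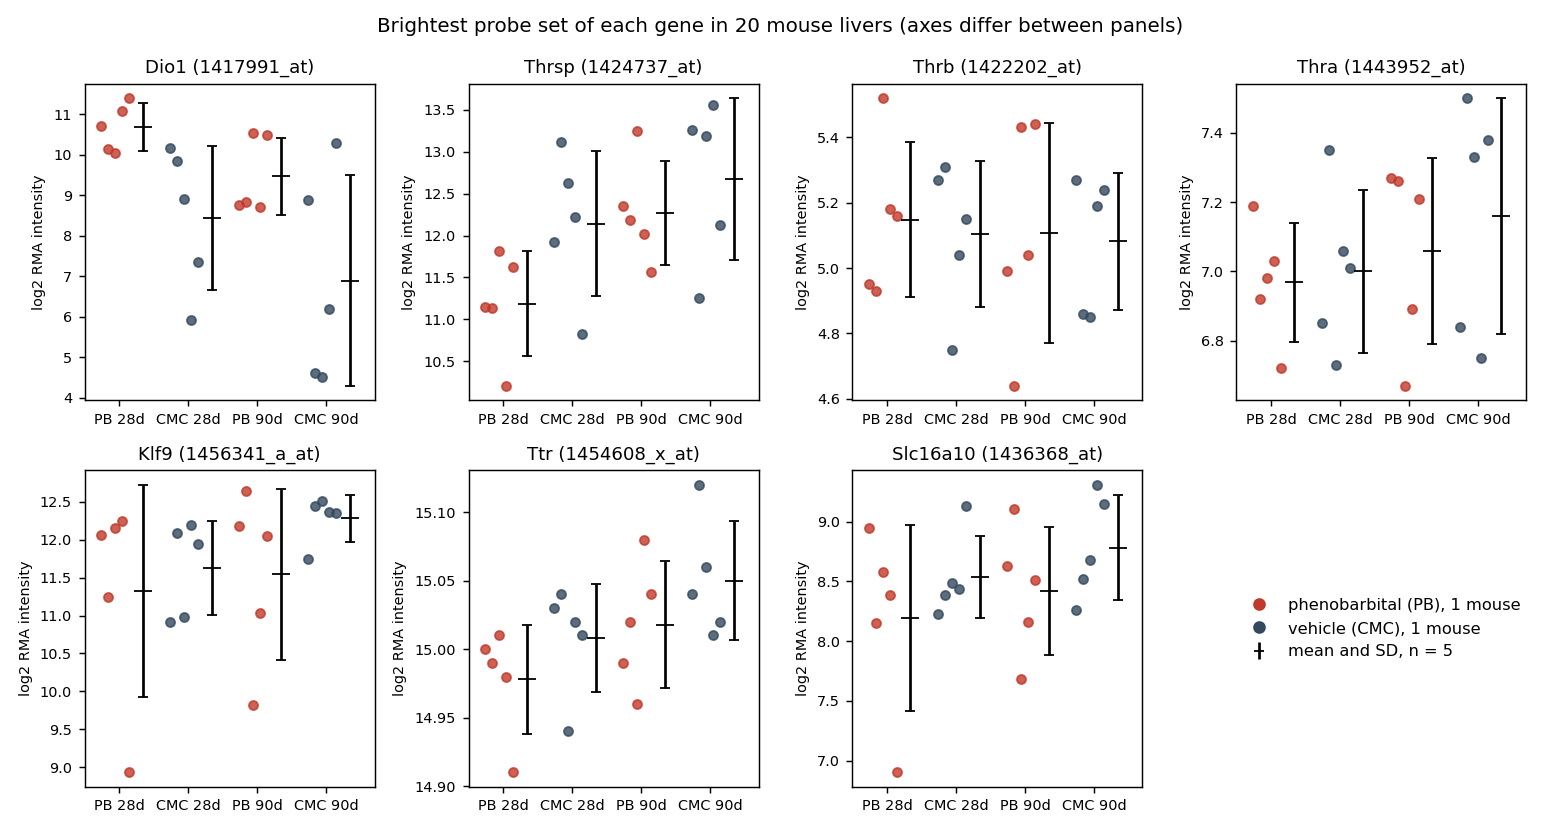
Log2 RMA intensity of the brightest probe set of each of the 7 genes in 20 livers, 1 point per mouse, with the mean and SD of each group (n = 5) beside the points. Dio1 points in CMC livers spread from 5.92 to 10.17 at 28 days and from 4.51 to 10.30 at 90 days, while the Ttr points of all groups lie between 14.91 and 15.12 (axes differ between panels).

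Dio1 encodes the type 1 deiodinase, the liver selenoenzyme that turns T4 into T3 and also degrades iodothyronines, and its transcript is itself raised by T3 in rodent liver. At 28 days its probe set 1417991_at read 10.72, 10.13, 10.04, 11.09 and 11.40 in the 5 PB livers, against 10.17, 9.84, 8.90, 5.92 and 7.34 in the 5 CMC livers. The PB livers lay close together, whereas the CMC livers ran from the PB range down to the 2 low livers, replicates 4 and 5, and 3 of 5 PB livers lay above every CMC liver. The means were 10.68 ± 0.59 in PB and 8.43 ± 1.79 in CMC livers (SD), a difference of 2.24 ± 0.94 log2 units (4.73-fold, 95% interval 0.29 to 4.19). Its adjusted p was 1 by limma, and the exact two-sided permutation test of this probe set alone gave p = 0.0238. Leaving out 1 liver moved the difference between 1.61 (without CMC replicate 4) and 2.68 (without CMC replicate 1).

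At 90 days Dio1 read 8.77, 8.83, 10.54, 8.72 and 10.48 in PB livers, against 8.88, 4.60, 4.51, 6.18 and 10.30 in CMC livers. The groups overlapped again: 2 of 5 PB livers lay above every CMC liver, and CMC replicates 1 and 5 lay within the PB range. The means were 9.47 ± 0.95 in PB and 6.89 ± 2.60 in CMC livers (SD), a difference of 2.57 ± 0.94 log2 units (5.95-fold, interval 0.62 to 4.52, limma adjusted p = 0.857, exact permutation p = 0.0794). CMC replicates 2 and 3 lay only 0.62 and 0.54 log2 units above the 25th percentile of their arrays, so the fold at 90 days depends on readings near the floor. Leaving out 1 liver moved the difference between 1.98 (without CMC replicate 3) and 3.42 (without CMC replicate 5), on either side with a limma adjusted p of 0.503 or more.

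Over both durations the mean PB effect on Dio1 was 2.41 ± 0.66 log2 units (5.31-fold, interval 1.03 to 3.79), higher in PB than in CMC livers at each time. Its unadjusted limma p was 0.00158 and its adjusted p 0.568, while the exact permutation test within durations gave p = 0.00466 for this probe set. Without CMC replicate 5 at 90 days the effect was 2.83 and the adjusted p 0.0904. Over all alternatives the effect ran from 2.09 to 2.83 with adjusted p between 0.0904 and 0.859. Without the 2 arrays that stood apart the differences were 2.06 at 28 days, 2.31 at 90 days and 2.18 in the mean (limma adjusted p = 1, 0.998 and 0.836). The effects at 90 and 28 days differed by 0.33 ± 1.32 log2 units, an interval of -2.43 to 3.09 that takes in no difference and differences larger than either effect.

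In order of the group means, Dio1 stood at 10.68 in PB livers at 28 days, 9.47 in PB livers at 90 days, 8.43 in CMC livers at 28 days and 6.89 in CMC livers at 90 days. The 2 PB groups differed by -1.21 ± 0.94 (90 minus 28 days, exact permutation p = 0.0635), and the 2 CMC groups by -1.54 ± 0.94 (exact permutation p = 0.325). Neither passed limma's test (adjusted p = 0.981 and 0.709), and PB at 90 days and CMC at 28 days differed by less than the SD of the CMC group at 28 days. These standard errors share the spread of all 4 groups. With only the groups compared in the fit, the standard error was 0.43 for the PB groups (interval -2.15 to -0.27). It was 1.10 for the CMC groups, and neither difference passed (limma adjusted p = 0.999 and 0.521).

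The spread of Dio1 between mice was itself large. The highest PB liver at 28 days held 2.56 times the signal of the lowest, against 19.1 times in CMC livers, and at 90 days the ratio was 3.51 in PB livers against 55.5 in CMC livers. Ranked by SD within a group among all 45037 probe sets, Dio1 stood 5249th in PB livers and 27th in CMC livers at 28 days, and 1212th in PB livers and 7th in CMC livers at 90 days. The residual SD of Dio1 over the 4 groups was 1.673, larger than that of 99.94% of probe sets. The difference in spread between PB and CMC livers was not tested.

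**Figure D2:**
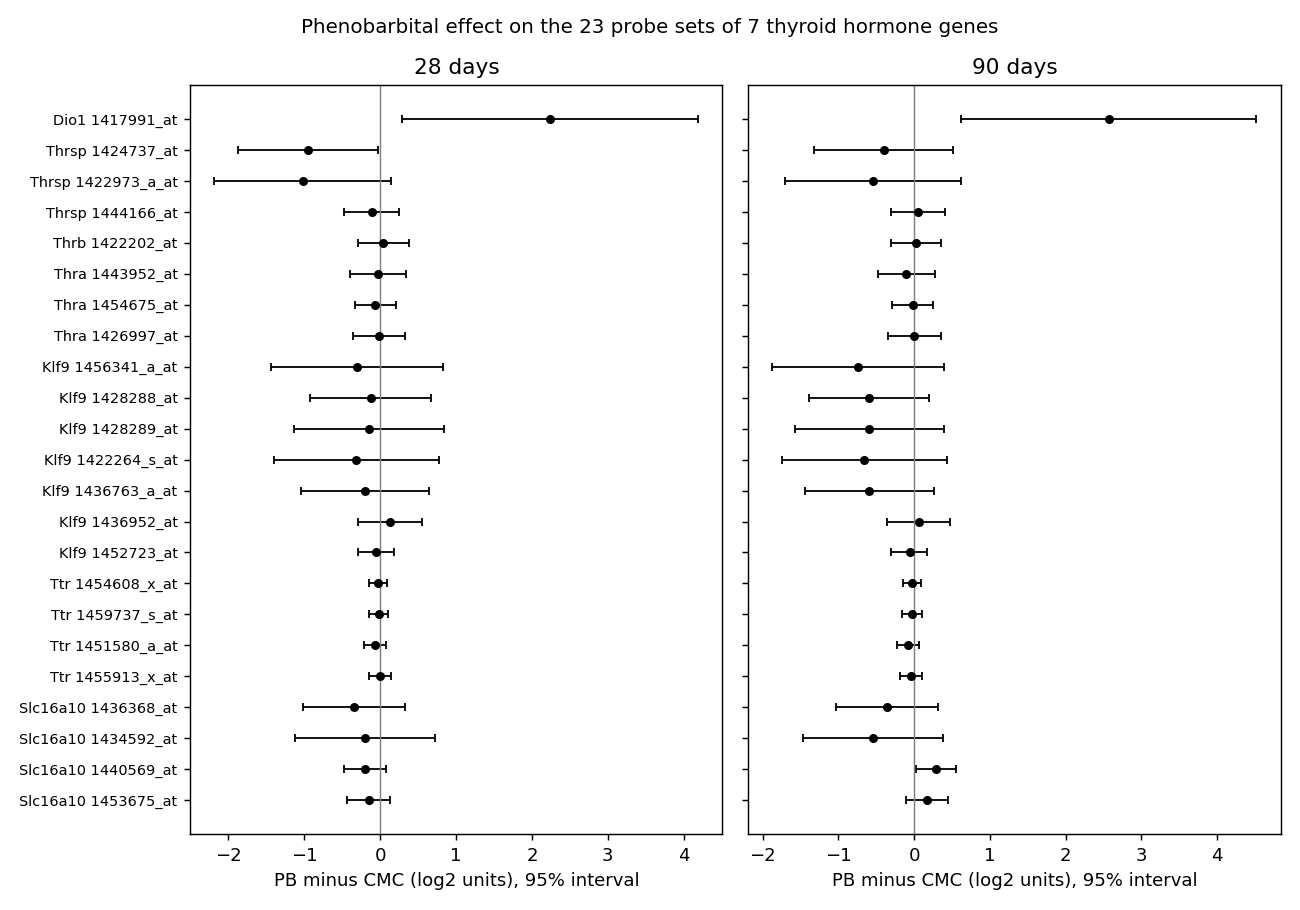
Difference between PB and CMC livers in log2 units for each of the 23 probe sets, with its 95% interval from limma, at 28 days on the left and 90 days on the right. Dio1 stands at 2.24 and 2.57 with wide intervals, Thrsp 1424737_at at -0.95 and -0.40, and the 4 Ttr intervals are narrow and close to 0.

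Thrsp encodes the thyroid hormone responsive spot 14 protein, a small nuclear protein tied to fatty acid synthesis, whose transcript in rat liver is a standard early response to T3. Its brightest probe set 1424737_at read 11.15, 11.14, 11.82, 10.21 and 11.62 in PB livers at 28 days, against 11.92, 13.11, 12.63, 12.22 and 10.83 in CMC livers. All 5 PB livers lay below 4 of the CMC livers, and CMC replicate 5 lay among them. The difference was -0.95 ± 0.44 log2 units (interval -1.87 to -0.03), with an adjusted p of 1 by limma and an exact permutation p of 0.0873. At 90 days the values were 12.35, 12.18, 13.24, 12.02 and 11.56 in PB livers, against 13.26, 11.25, 13.18, 13.56 and 12.12 in CMC livers. The groups overlapped over nearly their whole range, and the difference was -0.40 ± 0.44 (limma adjusted p = 0.861). It moved with single livers, to -0.76 without CMC replicate 2 and -0.18 without CMC replicate 4, and it was -0.65 without the 2 arrays that stood apart.

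The mean PB effect on Thrsp 1424737_at was -0.68 ± 0.31 log2 units (interval -1.33 to -0.03, limma adjusted p = 0.762, exact permutation p = 0.066). Without the 2 arrays that stood apart this effect was -0.85 (limma adjusted p = 0.948), and the difference at 28 days was -1.06. A second probe set, 1422973_a_at, followed 1424737_at closely over the 20 mice (r = 0.97). It gave -1.02 ± 0.56 at 28 days and -0.54 ± 0.56 at 90 days, and -1.16 and -0.92 without those arrays. The third and faintest, 1444166_at, followed 1424737_at less (r = 0.32) and gave -0.11 and 0.05, and -0.16 and -0.03 without those arrays. So the 2 bright probe sets had the same sign at both durations, and none passed the test.

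Thrsp was lowest in the PB group at 28 days: its group means were 11.19 ± 0.62 in PB livers at 28 days, 12.14 ± 0.86 in CMC livers at 28 days, 12.27 ± 0.62 in PB livers at 90 days and 12.67 ± 0.96 in CMC livers at 90 days (SD). In PB livers the level at 90 days exceeded that at 28 days by 1.08 ± 0.44 log2 units, with 4 of 5 livers above every liver at 28 days (limma adjusted p = 0.981, exact permutation p = 0.0238). In CMC livers the same difference was 0.53 ± 0.44. The last 3 groups in that order differed from their neighbours by less than their SDs.

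The receptors showed no difference of this size. Thrb encodes the receptor beta through which T3 mainly acts in hepatocytes, and its 1 probe set, 1422202_at, read 4.95, 4.93, 5.52, 5.18 and 5.16 in PB livers at 28 days, against 5.27, 5.31, 4.75, 5.04 and 5.15 in CMC livers. At 90 days it read 4.99, 4.64, 5.43, 5.04 and 5.44 in PB livers, against 5.27, 4.86, 4.85, 5.19 and 5.24 in CMC livers. The groups overlapped at both durations, with differences of 0.04 ± 0.16 (interval -0.29 to 0.38) and 0.02 ± 0.16 (-0.31 to 0.36). The sign changed under cyclic loess scaling, to -0.01 at 28 days and -0.03 at 90 days, and without the 2 arrays that stood apart, to -0.06 at 90 days. The probe set is faint, 1.06 log2 units above the 25th percentile on average.

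Thra encodes the receptor alpha and, from the same gene, a splice form that does not bind the hormone. At 28 days its brightest probe set 1443952_at read 7.19, 6.92, 6.98, 7.03 and 6.72 in PB livers, against 6.85, 7.35, 6.73, 7.06 and 7.01 in CMC livers. At 90 days it read 7.27, 7.26, 6.67, 6.89 and 7.21 in PB livers, against 6.84, 7.50, 7.33, 6.75 and 7.38 in CMC livers. Highs and lows were mixed between the groups, with differences of -0.03 ± 0.18 and -0.10 ± 0.18 log2 units, and at 28 days the sign turned under 2 scalings (0.02 centred on the 75th percentile, 0.0022 with cyclic loess) and was 0.03 without the 2 arrays that stood apart (-0.00 at 90 days). The other 2 probe sets, 1454675_at and 1426997_at, gave -0.06 and -0.01 at 28 days and -0.02 and 0.00 at 90 days. The intervals of the 3 probe sets ran from -0.40 to 0.34 at 28 days and from -0.47 to 0.35 at 90 days. Changes within these limits, in either direction, were therefore not excluded. The group means of Thra lay between 6.97 in PB livers at 28 days and 7.16 in CMC livers at 90 days. Those of Thrb lay between 5.08 in CMC livers at 90 days and 5.15 in PB livers at 28 days. The Thrb range was smaller than the SD of either group at its ends. The Thra range lay between the SDs of the groups at its ends (0.17 and 0.34).

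Klf9 encodes a zinc-finger transcription factor whose gene T3 switches on directly in several mouse tissues, and which glucocorticoids also raise. Its brightest probe set 1456341_a_at read 12.06, 11.24, 12.16, 12.24 and 8.93 in PB livers at 28 days, against 10.92, 12.09, 10.98, 12.19 and 11.94 in CMC livers. At 90 days it read 12.18, 12.64, 9.82, 11.03 and 12.05 in PB livers, against 11.74, 12.44, 12.51, 12.37 and 12.35 in CMC livers. The 2 lowest readings, 8.93 and 9.82, belonged to the 2 PB livers that stood apart over all probe sets. The differences were -0.30 ± 0.54 at 28 days and -0.74 ± 0.54 at 90 days (limma adjusted p = 1 and 0.857), and without those 2 livers they were 0.30 and -0.31. The 4 other bright probe sets gave -0.31 to -0.12 at 28 days and -0.66 to -0.59 at 90 days, but 0.18 to 0.38 and -0.31 to -0.25 without the 2 livers.

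The 4 other bright Klf9 probe sets followed the brightest over the 20 mice at r of 0.97 or more, and the 2 faint ones, 1436952_at and 1452723_at, did not follow it (r = 0.06 and -0.18). Across mice, after subtraction of group means, Klf9 1456341_a_at correlated with the first principal component of all probe sets at r = 0.98 (permutation p = 1e-05, the smallest that 100000 resamples can give, Spearman's rho = 0.95), and at 0.96 without the 2 farthest mice. The 4 others gave r between 0.96 and 0.98. Of all probe sets, 17.4% correlated with this component at an absolute r above 0.8. With the component as a covariate the mean PB effect on Klf9 was -0.03 ± 0.09 log2 units, against -0.52 ± 0.38 without it. The component was computed from these same arrays, with Klf9 included and group means left in. The covariate can therefore take up a PB effect on Klf9, and the smaller value does not test one.

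**Figure D3:**
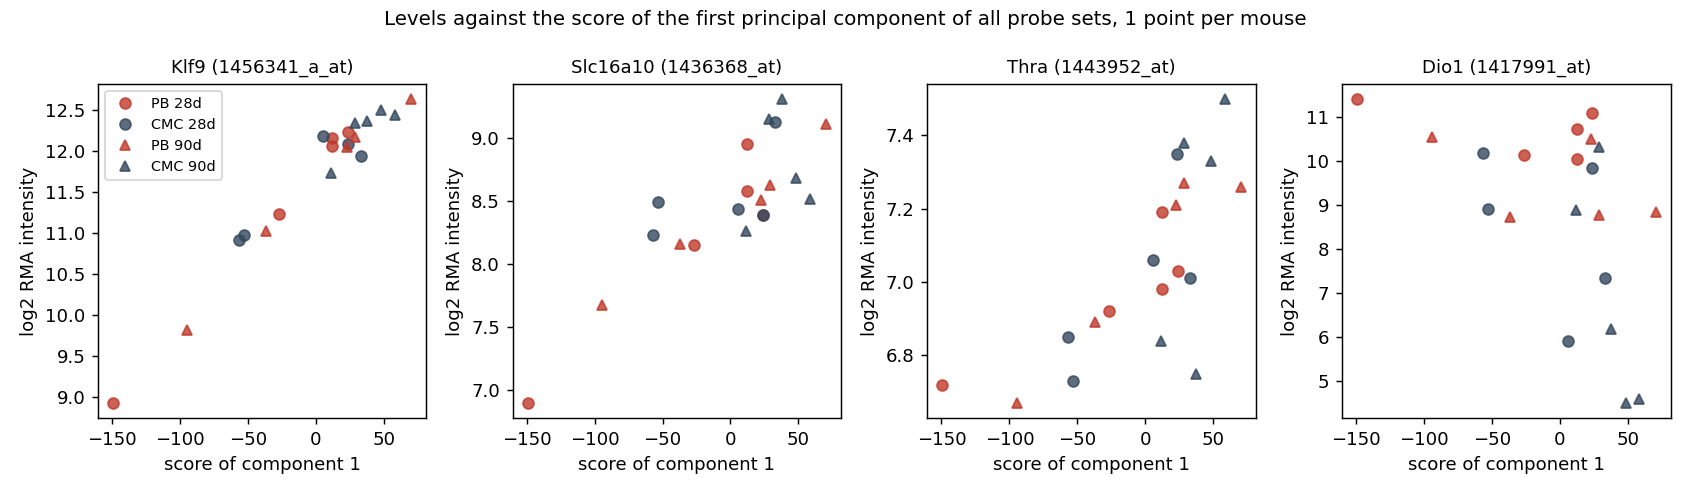
Log2 RMA intensity of Klf9, Slc16a10, Thra and Dio1 (brightest probe sets) against the score of the first principal component of all 45037 probe sets, 1 point per mouse, red for PB and dark blue for CMC livers, circles for 28 and triangles for 90 days. Klf9 is higher at higher scores, along a narrow band whose low end holds the 2 PB livers with scores of -149.4 and -94.4, and Dio1 shows no such band.

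Slc16a10 encodes a membrane carrier of aromatic amino acids that also moves thyroid hormones. At 28 days its brightest probe set 1436368_at read 8.95, 8.15, 8.58, 8.39 and 6.90 in PB livers, against 8.23, 8.39, 8.49, 8.44 and 9.13 in CMC livers. At 90 days it read 8.63, 9.11, 7.68, 8.16 and 8.51 in PB livers, against 8.26, 8.52, 8.68, 9.31 and 9.15 in CMC livers. Again the 2 livers that stood apart were the lowest, and the differences of -0.34 ± 0.32 and -0.36 ± 0.32 became -0.02 and -0.17 without them. The second probe set, 1434592_at, behaved alike (r = 0.89 to the brightest) with -0.20 ± 0.44 and -0.54 ± 0.44, but without those 2 livers it gave 0.21 at 28 days, with the sign turned, and -0.13 at 90 days. Both followed the first component (r = 0.83 and 0.95).

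The 2 faint probe sets of Slc16a10 did not follow the bright ones (r = 0.05 and -0.24). Of these, 1440569_at read 5.65, 6.04, 5.69, 5.89 and 5.44 in PB livers at 28 days, against 6.01, 5.78, 6.03, 5.93 and 5.94 in CMC livers, a difference of -0.20 ± 0.13 log2 units, or -0.12 without the 2 arrays that stood apart. At 90 days it read 5.91, 6.23, 6.31, 6.27 and 6.32 in PB livers, against 5.87, 5.89, 6.18, 5.68 and 5.95 in CMC livers, with 4 of 5 PB livers above every CMC liver. That difference was 0.29 ± 0.13 (limma adjusted p = 0.857, exact permutation p = 0.0238). The effects at 90 and 28 days differed by 0.49 ± 0.18 (interval 0.10 to 0.87, limma with unadjusted p = 0.0154 and adjusted p = 1). The faintest, 1453675_at, gave -0.15 ± 0.13 and 0.17 ± 0.13. Probe sets of this gene therefore disagreed in sign at 90 days, and none passed the test.

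Ttr encodes transthyretin, made in hepatocytes and the main plasma carrier of thyroxine in mice. Its 4 probe sets lay near the top of the array's scale, whose highest value was 15.34, with single readings from 14.32 to 15.12. Their residual SDs of 0.041 to 0.072 were among the smallest on the array, with at most 0.09% of all probe sets lower, and signals this close to the top of the scale can be compressed. Differences between PB and CMC livers lay between -0.06 and 0.00 log2 units at 28 days and between -0.08 and -0.03 at 90 days.

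One Ttr probe set separated the groups at 90 days. 1451580_a_at read 14.59, 14.56, 14.53, 14.56 and 14.61 in PB livers, against 14.65, 14.66, 14.63, 14.66 and 14.64 in CMC livers. All 5 PB livers lay below all 5 CMC livers, by -0.08 ± 0.07 log2 units (0.947-fold, limma adjusted p = 0.857, exact permutation p = 0.00794, the smallest that 5 against 5 can give). Groups that do not overlap were found for 0 of the 23 probe sets at 28 days (0.58% of all probe sets) and for this 1 of 23 at 90 days (1.03% of all). The other 3 Ttr probe sets overlapped between PB and CMC livers at 90 days, and with arrays centred on their 75th percentile all 4 had differences above 0, 1451580_a_at itself 0.02 (limma adjusted p = 0.949) and the brightest, 1454608_x_at, 0.06. The direction of Ttr at 90 days therefore depended on the scaling.

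Over the 7 genes, the direction of the differences depended on the scaling and on the 2 arrays that stood apart. As deposited, at 28 days 3 of the 23 probe sets were higher and 19 lower in PB livers, with a median difference of -0.11 log2 units, against 0.013 for all probe sets. At 90 days 7 were higher and 16 lower, with a median of -0.06 against 0.031. Of all probe sets, 53.5% were higher in PB livers at 28 days and 57.2% at 90 days. Centred on the 75th percentile, 8 were higher and 15 lower at 28 days, and 13 were higher and 10 lower at 90 days. With that scaling 65.6% and 74% of all probe sets were higher. Without the 2 arrays that stood apart, 13 were higher and 10 lower at 28 days, and 6 were higher and 17 lower at 90 days. Since 4 of the 23 are Ttr and 7 are Klf9, these counts lean on 2 genes. By the brightest probe sets the difference was above 0 for Dio1 and Thrb and below 0 for the other 5 genes at both durations, but the signs of Thrb, Thra, Klf9 and Ttr turned under at least 1 alternative at 28 days.

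Of the 21 pairs among the 7 genes (brightest probe sets, 20 mice, group means subtracted), 2 correlated across mice after adjustment over the 21. Klf9 and Slc16a10 gave r = 0.84 (permutation p = 2e-05, adjusted 0.00042) and rho = 0.72 (adjusted p = 0.0101), with r = 0.64 without the 2 mice farthest in Klf9. Thra and Klf9 gave r = 0.68 (permutation p = 0.00053, adjusted 0.00556) and rho = 0.63 (adjusted p = 0.0387), with r = 0.69 without the 2 mice farthest in Thra. Without the 2 livers that stood apart, both were below the threshold (r = 0.57, adjusted p = 0.137, and r = 0.64, adjusted p = 0.0955). Thra 1443952_at also followed the first component, at r = 0.70 (permutation p = 0.00042, adjusted 0.00115 over the 23 probe sets, rho = 0.62), and at 0.63 without those 2 livers, while 1426997_at gave r = 0.71 and 1454675_at r = 0.19.

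Dio1 and Thrsp, both standard T3 responses of rodent liver, gave r = 0.15 and rho = 0.18 across mice (permutation p = 0.526 and 0.45, adjusted 0.552 and 0.59), with r = 0.33 without the 2 mice farthest in Dio1. Dio1 and Thrb gave r = 0.50 and rho = 0.53 (permutation p = 0.0253 and 0.0169), which did not pass the adjustment over the 21 pairs (0.106 and 0.101). With the first component Dio1 gave r = -0.35 and Thrsp r = -0.37 (permutation p = 0.128 and 0.103).

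Other genes of the hormone's path were read from lists chosen by function, each gene by its brightest probe set with 1 symbol, 18193 genes in all. Of 22 listed genes that T3 raises in liver 18 were measured, and 0 passed the test at 28 days, at 90 days or in the mean PB effect, where 0.044%, 0.104% and 0.159% of all genes did. The mean PB effect was above 0 for 4 of the 18, and for 58.2% of all probe sets. The median in this list was -0.07 log2 units, against 0.028 for all genes. Without the 2 arrays that stood apart the effect was above 0 for 8 of the 18 (median -0.02 against 0.010). Fasn, which encodes fatty acid synthase, gave -0.75 ± 0.60 at 28 days and -0.85 ± 0.60 at 90 days, and Acly, the ATP citrate lyase that supplies its carbon, gave -0.67 ± 0.27 and -0.34 ± 0.27. Without the 2 arrays Fasn gave -0.21 and -0.53, and Acly -0.43 and -0.22. Cyp7a1, the rate-limiting enzyme of bile acid synthesis, gave -0.94 ± 0.49 and -1.07 ± 0.49 (limma adjusted p = 1 and 0.857). Me1, the malic enzyme and a classic T3 response of rat liver, gave -0.07 ± 0.28 and -0.08 ± 0.28, and without the 2 arrays 0.10 and -0.19.

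Of 15 receptor partners and coregulators 13 were measured. At 28 days, at 90 days and in the mean PB effect 0 passed the test. Since 0.044%, 0.104% and 0.159% of all genes passed, 0 calls in a short list say little about its genes. The median of the mean PB effects of these 13 was -0.25 log2 units, but 0.02 without the 2 arrays that stood apart. Rxra, the main retinoid X receptor of liver, gave -0.10 ± 0.54 at 28 days and -0.82 ± 0.54 at 90 days, the coactivator Ncoa2 gave -0.37 ± 0.54 and -0.87 ± 0.54, and Rxrb gave 0.21 ± 0.13 and -0.09 ± 0.13. Rxrg gave 0.02 ± 0.14 at 28 days and 0.42 ± 0.14 at 90 days, where PB and CMC livers did not overlap (limma adjusted p = 0.857). Of all probe sets, 1.03% had groups that did not overlap at 90 days. Without the 2 arrays Rxra gave 0.39 and -0.33, Ncoa2 0.21 and -0.43, Rxrb 0.22 and -0.03, and Rxrg -0.04 and 0.36, so that signs at 28 days turned for 3 of these 4. None of the 8 measured transport genes of 10 listed passed the test either. Slco1a4, an organic anion carrier that moves thyroxine, gave 0.42 ± 0.35 and 0.13 ± 0.35, and Slc7a5, a subunit of an amino acid exchanger that moves iodothyronines, gave 0.03 ± 0.15 and 0.23 ± 0.15. Without the 2 arrays Slco1a4 gave 0.71 and 0.31, and Slc7a5 -0.06 and 0.20.

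Of 6 genes of deiodination, binding and carriage besides the 7 genes above, 5 were measured. At 28 days, at 90 days and in the mean PB effect 0 of them passed, against 0.044%, 0.104% and 0.159% of all genes. Dio2, the type 2 deiodinase, is faint in this tissue, 1.63 log2 units above the 25th percentile, and gave 0.20 ± 0.12 and 0.23 ± 0.12. Serpina7, which encodes thyroxine-binding globulin, gave -0.36 ± 0.42 and -0.80 ± 0.42, and Iyd, which recovers iodide from iodotyrosines, gave 0.15 ± 0.18 and 0.25 ± 0.18. Without the 2 arrays Serpina7 gave -0.66 and -1.10 (limma adjusted p = 1 and 0.98), and Iyd 0.03 and 0.17.

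Among the lists of genes around thyroid hormone action, calls were found only in that of the clearance genes. These conjugate hormones and drugs with glucuronic acid or sulfate or export the products. The lists were chosen with earlier results of these data known, so the place of the calls is no independent result. Of 25 listed 20 were measured: 0 passed at 28 days, 2 at 90 days (Sult1e1 and Abcc4) and 3 in the mean PB effect (these and Sult1c2). Of all genes, 0.044%, 0.104% and 0.159% passed in these comparisons. Every call in the list was higher in PB livers. On the whole array, so were 23 of 23 called probe sets at 90 days and 41 of 43 in the mean PB effect. The median of the mean PB effect in this list was 0.23 log2 units, against 0.028 for all genes. The 5 listed Ugt1a genes, which include the bilirubin and thyroxine glucuronidating enzymes, had no probe set with a single symbol and were not used here. The 8 Ugt2 genes measured had mean PB effects from -0.27 to 0.53, and 0 passed the test.

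Sult1e1 encodes the oestrogen sulfotransferase, which in mammals also sulfates iodothyronines. At 28 days it averaged 6.01 ± 0.98 in PB livers against 4.11 ± 0.23 in CMC livers (SD). PB values of 4.36 to 6.93 lay above CMC values of 3.72 to 4.32, and 0.58% of all probe sets had groups without overlap. At 90 days it averaged 8.69 ± 0.75 in PB livers against 3.98 ± 0.09 in CMC livers. It rose in PB livers at 90 days by 4.71 ± 0.36 log2 units (limma adjusted p = 3.88e-07), and the difference of 1.90 ± 0.36 at 28 days was not called (adjusted p = 0.101). Of 21 alternatives, applied after the data had been seen, 2 called the difference at 28 days. These were the first principal component as a covariate and the removal of PB replicate 4. Over the 21 the limma adjusted p ran from 0.000606 to 0.567. The CMC readings of Sult1e1 lay at or near the 25th percentile of the arrays, where differences are compressed. PB livers at 90 days exceeded PB livers at 28 days by 2.68 ± 0.36 (limma adjusted p = 0.0122), whereas the difference between the 2 PB effects did not pass (2.81 ± 0.51, adjusted p = 0.819).

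Abcc4, an efflux pump for conjugated organic anions, averaged 7.24 ± 0.65 in PB livers against 5.74 ± 0.42 in CMC livers at 90 days (SD). It rose in PB livers at 90 days (limma adjusted p = 0.03). The difference at 28 days was 1.02 ± 0.27 log2 units (adjusted p = 0.996), without overlap of the groups, as for 0.58% of all probe sets. Under the alternatives, applied to these 3 genes after the data had been seen, the limma call at 90 days was lost in 9 of 21, among them 8 removals of 1 liver (PB replicates 1, 2, 4 or 5, CMC replicates 2, 3, 4 or 5), with an adjusted p of up to 0.299, while that of the mean PB effect (1.26 ± 0.19, adjusted p = 0.0025) was kept in all 30. Sult1c2, a cytosolic sulfotransferase, gave 1.29 ± 0.35 and 1.58 ± 0.35 (limma adjusted p = 1 and 0.224) and rose in the mean PB effect, by 1.43 ± 0.25 (adjusted p = 0.0147).

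**Figure D4:**
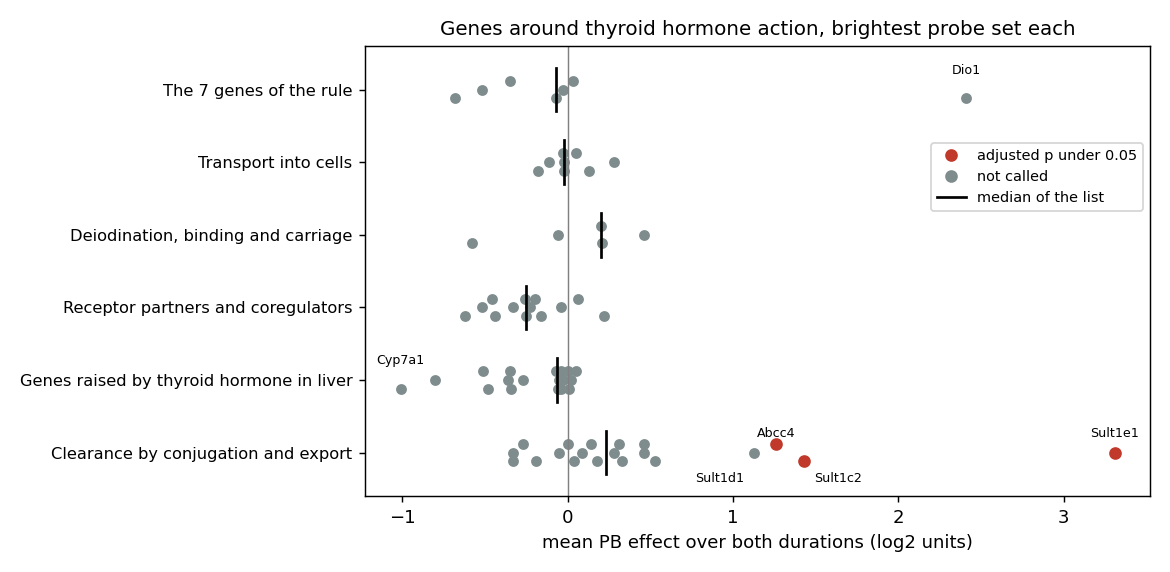
Mean PB effect over both durations in log2 units for the 7 genes and for 5 lists of genes around them, 1 point per gene (brightest probe set), with the median of each list as a bar and red points for an adjusted p under 0.05. The 3 red points are Sult1e1, Sult1c2 and Abcc4 in the clearance list, and Dio1 lies at 2.41 without passing the test.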

How the data were processed

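The 20 arrays, 1 per mouse, were used as deposited: the values are log2 intensities that the authors summarised per probe set with RMA (the name is given per the submitters' processing notes). This method corrects background, is meant to make the arrays' distributions alike and combines the probes of a set. The deposited distributions still differed, with 75th percentiles from 6.62 to 7.17. The lowest were 6.62 (PB replicate 5, 28 days) and 6.81 (PB replicate 3, 90 days), the 2 arrays that stood apart. The part of this difference in the first principal component was not tested. Differences of faint and of near-saturated probe sets are compressed on such arrays. Its software version and any batch of the arrays are not given in the sources used here. Of 45037 probe sets, the platform annotation gives 34945 a single symbol, 932 several and 9160 none.

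Groups were fitted as 4 means with limma 3.58.1 in R 4.3.3 (lmFit, eBayes with an intensity trend, 16 residual degrees of freedom), and p-values were adjusted by Benjamini-Hochberg over all probe sets at a threshold of 0.05. Single probe sets were also tested by exact permutation of mice (smallest two-sided p 0.00794 for 5 against 5). The 7 genes, the lists around them and the comparisons were chosen with earlier results of these data known. All 23 probe sets of the 7 genes were reported. From each list the genes named were up to 3 with the smallest p in the mean PB effect, up to 2 at each duration and a few always named, such as Rxra and Fasn. The fit was also run on simulated data, made from residuals of the arrays reassigned at random with known changes added. The outcome of that run is not given here. Alternatives changed the probe set filter, the choice of probe set, the scaling, the intensity trend, array weights, the groups fitted, the covariates (first principal component, replicate block) and the arrays used. Arrays have no read depth, so precision is limited by 5 mice per group and by faint probe sets. The deviations of same-numbered mice of 2 groups correlated with mixed sign (r from -0.548 to 0.513), which cannot by itself settle whether mice were paired. The labels name no pairs, so replicate numbers were not taken as pairs.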

Additional observations from a re-analysis of the deposited data

Results flagged for a closer look

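In 10 of the 92 sets of 5 readings (23 probe sets in 4 groups), the lowest or highest liver lay far enough from the rest to exceed Dixon's critical value of 0.71, the gap as a share of the range. Chance passes about 1 set in 20, and no explanation was tested. Of the 10, 4 came from Klf9 in CMC livers at 90 days: replicate 1 was lowest in 1456341_a_at (11.74, the others 12.35 to 12.51, share 0.791), in 1428289_at (11.32, the others 11.79 to 11.95, share 0.746) and in 1422264_s_at (8.96, the others 9.49 to 9.63, share 0.786), and replicate 2 was lowest in the faint 1452723_at (4.08, the others 4.34 to 4.41, share 0.803). The bright probe sets of 1 gene share the same RNA, so they are not separate cases.

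PB replicate 5 at 28 days, which has the lowest score of the first component, was lowest in Klf9 1422264_s_at (6.08, the others 8.72 to 9.59, share 0.752), in Ttr 1459737_s_at (14.60, the others 14.71 to 14.75, share 0.711) and in Ttr 1451580_a_at (14.35, the others 14.57 to 14.61, share 0.839). Ttr 1455913_x_at had CMC replicate 3 at 28 days lowest (14.32, the others 14.49 to 14.53, share 0.827) and CMC replicate 2 at 90 days highest (14.63, the others 14.47 to 14.52, share 0.731). In Slc16a10 1440569_at PB replicate 1 at 90 days was lowest (5.91, the others 6.23 to 6.32, share 0.786).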

How the results depend on the processing

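In all 11 alternatives besides removals of 1 liver, and in every such removal, 0 member probe sets passed limma's test. The mean PB effect on Dio1 reached an adjusted p of 0.0904 to 0.859. With the replicate block 0 were called either, and that effect stayed 2.41 (limma adjusted p = 0.656). The cause of the reversals below was not tested. At 28 days Thrb gave -0.01 with cyclic loess and -0.05 to 0.10 leaving out 1 liver. Thra gave 0.02 centred on the 75th percentile, 0.0022 with cyclic loess, 0.03 without the 2 livers that stood apart, 0.02 with the first component as covariate and -0.10 to 0.06 leaving out 1 liver. Klf9 gave 0.13 with array weights, 0.30 without the 2 livers and -0.53 to 0.30 leaving out 1. Ttr gave 0.02 centred on the 75th percentile. At 90 days Thrb gave -0.03 with cyclic loess, -0.06 without the 2 livers, -0.02 with the component and -0.06 to 0.14 leaving out 1. Thra gave 0.03 with the component and Ttr 0.06 centred on the 75th percentile. For the genes of the lists, taken without the 2 livers after the data had been seen, no call changed, and these signs turned: at 28 days Me1 0.10, Med1 0.10, Ncoa2 0.21, Rxra 0.39, Rxrg -0.04, Tbl1xr1 0.05, Slc3a2 0.11 and Slc7a5 -0.06, at 90 days Slc3a2 0.06, and in the mean PB effect Rxra 0.03, Slc3a2 0.08 and Slco1c1 0.04. Pairs of members that correlated numbered 2, but 5 without subtraction of group means, 0 without the 2 livers and 1 (without PB replicate 3 at 90 days) to 4 (without PB replicate 1 or 4 at 90 days) leaving out 1. Centring on the 75th percentile moved the median of all probe sets at 90 days to 0.125, against 0.031, and the share above 0 to 74%, against 57.2%.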

Other observations

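The genes whose readings followed each member most closely over the 20 mice, after subtraction of group means and among 15596 genes, are given as a description. For Dio1 these were Ptbp1, Ank1 and Stmn2, at r = 0.85 each. For Thrsp they were Eif2b3 (r = 0.77), Hes6 and Mtg1 (r = 0.76 each), and for Thrb Gpr37l1 (0.83), Ulk4 and Prph (0.82 each). For Thra they were Rfx5 (0.87), Dgkz and Stard10 (0.85 each), and for Ttr Cyp2c50 and Zbtb39 (0.86 each) and Abcc1 (0.85). For Klf9 they were Rnf44, Sp1 and Sptan1, at r = 0.99 each, and these 3 themselves followed the first component at r of 0.96 to 0.98. For Slc16a10 they were Slc35e3 (0.94), Tubgcp4 and Ptch1 (0.93 each). All these pairs share the same 20 arrays, and no p is given.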
